A study of Homo sapiens with 9 samples.

Results

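The 9 genes EPCAM, CD24, CD44, PROM1 (CD133), CEACAM1, CEACAM6, CD9, ALDH1A1 and ALDH1A3, which encode epithelial and stem-like surface antigens or aldehyde dehydrogenases, were followed in the human ovarian serous carcinoma line OVCA433 after knockdown of MPZL3. They were taken by gene symbol, with earlier results of these data known, as 9 of the 58676 genes in the count table. The 9 libraries came from a single line in 3 groups of 3, with replicates lettered A, B and C. Control cells carried the shRNA Control vector and the genotype label WT, and the knockdown cells carried either shRNA#1-MPZL3 or shRNA#3-MPZL3 (hairpin #1 and hairpin #3 here), delivered by lentivirus and selected with puromycin. The control is called an empty vector in 1 place of the study's methods and scrambled in another.

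EPCAM is a cell adhesion glycoprotein of the basolateral membrane of epithelia, and CD24 is a small, heavily glycosylated protein held in the membrane by a lipid anchor. CD44 is the main receptor for hyaluronan and is made as a standard form and as splice variants. CD9 is a tetraspanin that organizes adhesion receptors in the membrane, CEACAM1 and CEACAM6 are immunoglobulin-type adhesion molecules, and PROM1 is a pentaspan protein of membrane protrusions. ALDH1A1 and ALDH1A3 are cytosolic enzymes that make retinoic acid from retinaldehyde. CD44, CD133, CD24, EPCAM and ALDH activity are widely used to sort stem-like cells from ovarian and other carcinomas, and CD24 and EPCAM also mark the epithelial state.

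In the knockdown cells, EPCAM, CD24, CEACAM1 and ALDH1A3 fell with both hairpins, CD9 fell as well but less, CD44 did not pass both thresholds with either hairpin, and ALDH1A1 rose with hairpin #3 alone. PROM1 and CEACAM6 had almost no reads in any library. Of the 9, 7 passed the filter on low counts and were tested, each within a fit over all 15975 tested genes. Calls required 2 things of edgeR's quasi-likelihood test, a Benjamini-Hochberg adjusted p-value below 0.05 and a fold change of 1 or more, up or down, in log2 units. With both hairpins pooled, 5 of the 7 tested members were called, 0 higher and 5 lower, against 14.7% of all tested genes called, 7.26% higher and 7.4% lower. Hairpin #1 alone called 4 members, all lower (all genes 16.3%, 7.76% higher and 8.55% lower). Hairpin #3 called 6, of which 5 were lower and 1 higher (all genes 15.3%, 7.46% higher and 7.83% lower). Both hairpins were set against the same 3 control libraries. The members called lower, pooled and with either hairpin, include CEACAM1, which passed the filter only through the control libraries. In the direct comparison of hairpin #3 with hairpin #1, 1 member was called, higher with hairpin #3 (all genes 3.93%, 2.22% higher and 1.72% lower). The adjusted p-value alone was passed by 33%, 37.8%, 34.7% and 11.6% of tested genes in these 4 comparisons. Groups without overlap between libraries, a weaker condition that several members met, were found for 33.1%, 47.3%, 47.9% and 27.7%. The members, and the lists set beside them below, were chosen for their biology with earlier results of these data known. They are not a sample of the genome, so the shares over all genes are given as a description only.

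**Figure D1:**
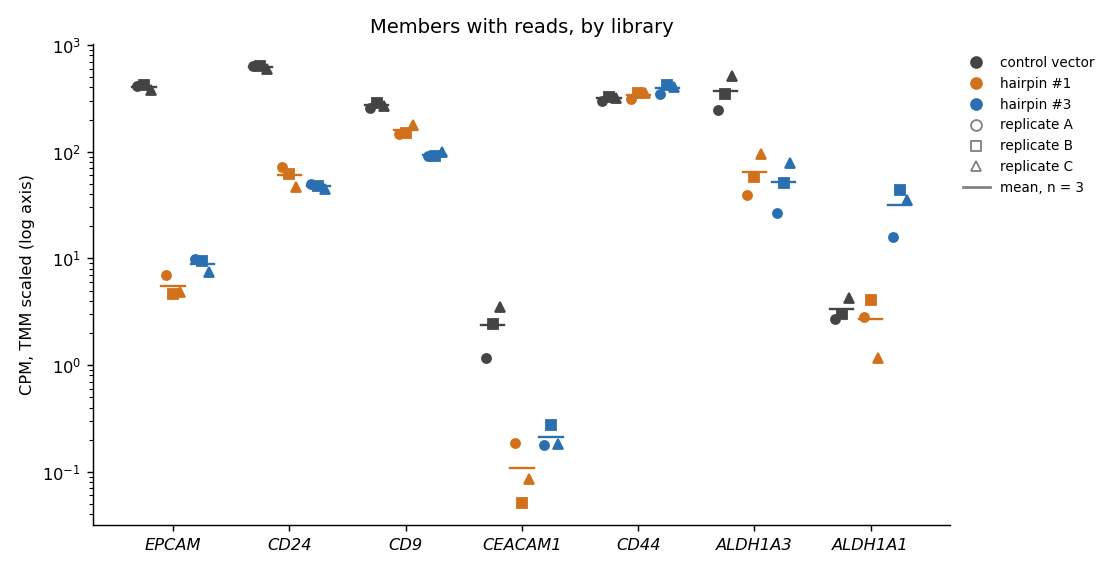
Level of the 7 tested members (y axis, TMM-scaled CPM on a log axis) in each of the 9 libraries, coloured by group and shaped by replicate letter, with a line at the mean of 3. EPCAM, CD24, CD9, CEACAM1 and ALDH1A3 lie lower in all 6 knockdown libraries than in any control library, and ALDH1A1 stands apart only with hairpin #3, at 15.7 to 43.6 CPM.

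Library totals ranged from 16850854 to 23890191 counts. MPZL3, the targeted gene, was at 19.5 ± 3.42 CPM (SD, n = 3; CPM are read counts scaled by edgeR's TMM library sizes) in the control cells. Hairpin #1 left 1.88 ± 0.0926 CPM and hairpin #3 left 1.57 ± 0.514 CPM. Of the 13 markers listed for serous ovarian carcinoma, WT1 had 0 counts in every library, and FOLR1 and MUC16 were at 3 counts or fewer in all 6 knockdown libraries. The summed level of the list was 10900 to 13800 CPM in control and 5390 to 6930 CPM in knockdown, with 6 of 11 tested markers lower and 1, PAX8, higher. MUC16, WFDC2 and KRT19 fell most, KRT19 from 1550 to 132 and 87 CPM. The summed level of the 9 fibroblast markers moved the other way, at 19 to 23 CPM in control, 110 to 447 with hairpin #1 and 503 to 871 with hairpin #3. Most of this sum was COL1A1. All 5 tested fibroblast markers rose in the pooled comparison, among them COL1A1 (17.9 to 312 and 641 CPM), PDGFRB (0.555 to 13.8 and 16.8) and COL1A2 (0.0161 to 2.65 and 0.869), while DCN had 0 counts throughout. FAP, PDGFRA and THY1 were also too low to be tested, and FAP went down (0.55 to 0.352 and 0.129 CPM). COL1A2 and COL3A1, each at 0.0161 CPM in control, passed the filter on low counts only through knockdown libraries. That all 5 tested fibroblast markers rose depends partly on this. The 5 mesothelial markers summed to 124 to 158, 94.1 to 110 and 155 to 197 CPM, with ITLN1 at the floor in all groups. UPK3B was lower with both hairpins pooled (57.2 to 0.541 and 0.746), and MSLN (68.4 to 85.9 and 149) and LRRN4 (10.4 to 17.4 and 25.1) were called higher with hairpin #3 and not when pooled. The 6 leukocyte markers summed to 0.368 to 2.37 CPM over the 9 libraries, with CD3E among those at the floor. The 5 endothelial markers summed to 0.946 to 1.65 CPM in control and 4.86 to 8.52 CPM in knockdown, with CDH5 (0.0971 to 2.29 and 3.7) and KDR (0.291 to 2.54 and 1.71) higher. VWF (0.388 to 0.422 and 0.511) and TEK (0.438 to 0.552 and 0.911) were not called, and PECAM1 was too low to be tested. The part of these marker changes in the members' results was not tested. In bulk RNA, fewer cells with a transcript and less of it per cell cannot be told apart.

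EPCAM (ENSG00000119888, chromosome 2, 47345158 to 47387601, GRCh38) was among the most abundant members in control and fell farthest of the 7 tested members in both comparisons with control. It was at 412, 420 and 376 CPM in control libraries A, B and C, at 6.92, 4.68 and 4.84 with hairpin #1, and at 9.94, 9.44 and 7.41 with hairpin #3. No knockdown library came near the control range, and the groups of the hairpins did not overlap either. What remained was 1.36% of the control level in hairpin #1 cells and 2.22% in hairpin #3 cells. The change was -6.20 (SE 0.169) on the log2 scale with hairpin #1 and -5.50 (SE 0.163) with hairpin #3, with edgeR adjusted p-values of 2.94e-11 and 7.62e-11. The residual level was higher with hairpin #3 than with hairpin #1, by 0.70 on the log2 scale (95% interval 0.349 to 1.05, edgeR adjusted p-value 0.0128, with 5.78e-05 to 0.0617 over the alternatives), which was under the fold threshold. EPCAM transcripts were still counted in every knockdown library, at 92 to 172 reads.

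The other genes tied to EPCAM went down in part. Of 13 listed relatives, partners and proteases of EPCAM, all were tested, and 6 were called lower and 0 higher in the pooled comparison, with a median log2 fold change of -0.83 against 0.00454 over all tested genes. ST14 (matriptase, a membrane protease that cuts EPCAM), CLDN7 (claudin-7, which binds EPCAM) and SPINT1 (a matriptase inhibitor) were among the 6. ST14 went from 406 CPM to 0.112 and 0.308, CLDN7 from 137 to 1.24 and 2.55 (pooled log2 fold change -6.18, SE 0.256), and SPINT1 from 196 to 3.66 and 3.36 (-5.80, SE 0.121). SPINT2, a second inhibitor of that protease, fell from 512 CPM to 97.1 and 94.8, and FHL2 from 287 to 97.7 and 104. The other 7 were not called, among them the sheddase genes ADAM10 and ADAM17. ADAM10 was at 250, 210 and 173 CPM in the 3 groups, with a log2 value of -0.53 for hairpin #3 (SE 0.102, edgeR adjusted p-value 0.0011), under the fold threshold.

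CD24 (ENSG00000272398, chromosome 6, 106969831 to 106975627) was the most abundant member in control per length of gene, and it fell with both hairpins. Control libraries were at 631, 638 and 596 CPM, hairpin #1 libraries at 72, 61.5 and 47, and hairpin #3 libraries at 49.7, 47.7 and 44.9. Every knockdown library was lower than every control library, and the ranges of the hairpins overlapped. CD24 was at 9.68% of control with hairpin #1 (-3.37 on the log2 scale, SE 0.142, edgeR adjusted p-value 9.77e-10) and at 7.64% with hairpin #3 (-3.71, SE 0.144, 6.78e-10). The hairpins differed by -0.34 (95% interval -0.629 to -0.0557, edgeR adjusted p-value 0.123), and with the replicate letter as a block by -0.33 (edgeR adjusted p-value 0.0192, with 0.0186 to 0.351 over the alternatives), under the fold threshold. Reads of CD24 can be shared with its processed pseudogenes. CD24P4 held 11 reads over all libraries and CD24P2 held 0, so how the counting split such reads is uncertain.

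CD9 (ENSG00000010278, chromosome 12, 6199715 to 6238271) fell in steps from control to hairpin #1 to hairpin #3. It was at 256, 288 and 271 CPM in control, 146, 150 and 179 with hairpin #1, and 90.4, 90.8 and 98.4 with hairpin #3. None of the 3 groups overlapped. On the log2 scale CD9 changed by -0.78 (SE 0.102, edgeR adjusted p-value 4.16e-05) with hairpin #1, which missed the fold threshold, and -1.54 (SE 0.104, 8.82e-08) with hairpin #3. The direct difference between the hairpins was -0.76 (95% interval -0.983 to -0.542, edgeR adjusted p-value 0.00033), again under the fold threshold. The pooled value of -1.11 (SE 0.204, edgeR adjusted p-value 0.00127) was an average over hairpins that differed.

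Of 33 listed tetraspanins and CD9 partners, 27 were tested, and 5 were called higher and 3 lower in the pooled comparison (median 0.0124). The 3 that fell were TSPAN1 (236 CPM to 3.76 and 7.65), UPK1B, a uroplakin of specialised epithelia (33.4 to 0.0286 and 1.72), and TSPAN33 (6.01 to 1.2 and 2.24). The 5 that rose were TSPAN9 (32.7 to 73 and 76.4) and 4 transcripts with a control level under 1 CPM, CD37, TSPAN11, TSPAN19 and TSPAN32, named after their values were known. TSPAN11 and TSPAN19, at 0.0814 and 0.0159 CPM in control, passed the filter on low counts only through knockdown libraries. The count of 5 higher depends partly on this. The widely expressed tetraspanins CD63, CD81, CD82 and CD151 were not called, and neither were IGSF8 and PTGFRN, the immunoglobulin-type proteins that bind CD9 directly.

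CEACAM1 (ENSG00000079385, chromosome 19, 42507304 to 42561234) was a low-abundance transcript that fell with both hairpins. It held 24, 49 and 74 reads in the control libraries, 4, 1 and 2 with hairpin #1, and 3, 5 and 4 with hairpin #3. The control libraries were spread out, at 1.16, 2.44 and 3.54 CPM, and still all lay above the knockdown libraries, at 0.0509 to 0.274 CPM. From summed reads, hairpin #1 was at 4.56% of control (exact 95% interval 1.8% to 9.64%, counting error only) and hairpin #3 at 8.84% (4.47% to 15.9%). The fitted log2 fold changes were -4.38 (SE 0.557, edgeR adjusted p-value 3.42e-05) and -3.46 (SE 0.512, 0.000143), and hairpin #3 minus hairpin #1 did not pass the test (0.92, 95% interval -0.759 to 2.60, edgeR adjusted p-value 0.525). CEACAM1 passed the filter on low counts only through the control libraries. Its being tested was thus tied to a high control level, and the p-values against control are given as a description. Exons of CEACAM1 share 185 bases with the antisense gene LIPE-AS1, which had at most 6 reads.

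CEACAM6 (ENSG00000086548, chromosome 19, 41750977 to 41772208) had 0 reads in all 9 libraries, which allows up to 0.129 to 0.177 CPM at 3 counts per library. CEACAM5, the carcinoembryonic antigen gene, also had 0 reads throughout. Of the 10 other CEACAM genes listed, only CEACAM19 was tested, at 11.3, 10.3 and 7.5 CPM in the 3 groups (pooled -0.35 on the log2 scale, SE 0.208, edgeR adjusted p-value 0.232). CEACAM genes are similar in sequence, so reads could be lost or exchanged between them in counting.

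PROM1 (ENSG00000007062, chromosome 4, 15963076 to 16084378) had 0, 0 and 1 reads in control, 1, 2 and 1 with hairpin #1 and 0 in each hairpin #3 library, at or under 3 counts everywhere, so neither a level nor a fold change could be measured. The gene for CD133 was not detectable above the floor at this depth in either state of these cells. PROM2, the other prominin gene and a transcript of epithelial cells, was abundant in control at 238 CPM and fell to 1.9 and 1.33 (pooled -7.18 on the log2 scale, SE 0.217, edgeR adjusted p-value 6.51e-10).

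CD44 (ENSG00000026508, chromosome 11, 35138870 to 35232402) stayed within a narrow range. It was at 300, 326 and 322 CPM in control, 309, 352 and 352 with hairpin #1, and 345, 426 and 405 with hairpin #3. The control range overlapped that of hairpin #1 and lay below that of hairpin #3. With hairpin #1 the log2 fold change was 0.10 (95% interval -0.129 to 0.323, edgeR adjusted p-value 0.508). With hairpin #3 it was 0.31 (95% interval 0.0837 to 0.537, edgeR adjusted p-value 0.0347), under the fold threshold, and the adjusted p-value ranged from 0.00162 to 0.168 over the alternatives. The hairpins differed by 0.21 (95% interval -0.0132 to 0.439, edgeR adjusted p-value 0.232), and a block by replicate letter left that value at 0.21 with an edgeR adjusted p-value of 0.0342 (0.0342 to 0.576 over the alternatives), under the fold threshold. The counts are per gene, so the standard form and the splice variants of CD44 are summed. An antisense gene, CD44-AS1, shares 84 exonic bases and had at most 9 reads.

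**Figure D2:**
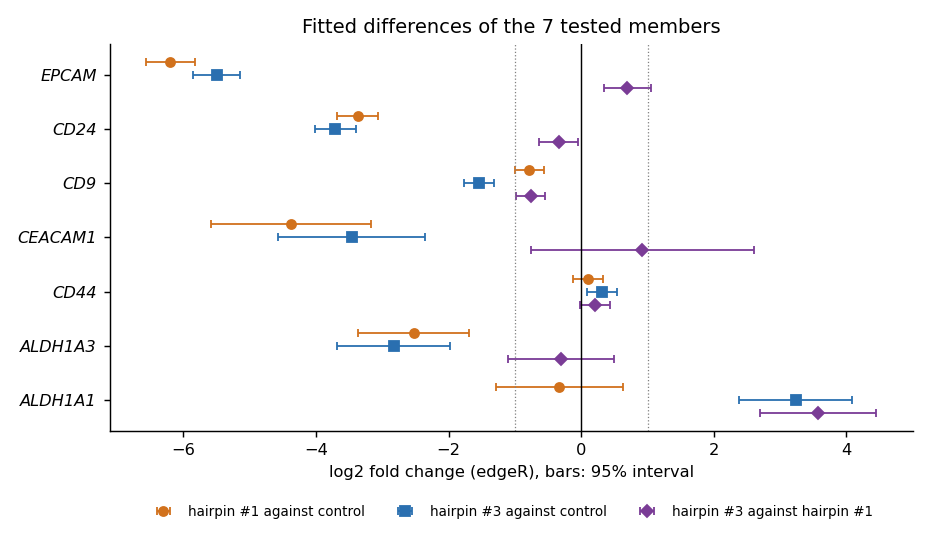
Fitted log2 fold change (x axis) of the 7 tested members for each hairpin against control and for hairpin #3 against hairpin #1, with 95% intervals. Dotted lines mark the fold threshold of 1. EPCAM lies farthest to the left, at -6.20 and -5.50, CD44 lies near 0, and ALDH1A1 is the member whose hairpins are far apart, at -0.33 and 3.24.

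CD24 fell while CD44 did not pass the thresholds, and the order of the pair reversed. Per kilobase of gene length, the CD24 level was 6.84, 6.36 and 6.01 times that of CD44 in control libraries A, B and C. In the knockdown libraries CD44 was the higher of the pair, at 1.32, 1.76 and 2.3 times CD24 with hairpin #1 and 2.13, 2.75 and 2.77 times with hairpin #3. This ratio was computed after the levels had been seen and carries no test. The reversal came from CD24, whose level per length went from a mean of 201 RPKM (CPM per kilobase) to 19.4 and 15.3, while that of CD44 was 31.4, 33.6 and 38.9.

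The full order of the members per length also differed between the groups. In control it ran from CD24 through EPCAM (160 RPKM), CD9 (82.3) and ALDH1A3 (64.1) to CD44, with CD9 and ALDH1A3 overlapping between libraries, and ALDH1A1 (1.17) and CEACAM1 (0.431) far below. With hairpin #1 it was CD9 (47.9), CD44, CD24, ALDH1A3 (11.1), EPCAM (2.18) and ALDH1A1 (0.945), and CD24 and ALDH1A3 overlapped. With hairpin #3 it was CD44, CD9 (28.3), CD24, ALDH1A1 (11), ALDH1A3 (8.99) and EPCAM (3.55), and ALDH1A1 overlapped both of its neighbours. In both knockdown groups CD9 and CD44 led, in place of CD24 and EPCAM.

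Among the listed hyaluronan enzymes, CD44 ligands and linkers of CD44 to the cytoskeleton, 15 of 19 were tested, 5 of them called higher and 1 lower in the pooled comparison (median 0.0422). VCAN (versican, a matrix proteoglycan that binds hyaluronan) rose from 5.09 CPM to 158 and 114, and SPP1 (osteopontin, a CD44 ligand) from 5.22 to 26.8 and 16.4. TNFAIP6, which modifies hyaluronan, had 0 reads in control and was at 1.24 and 2.26 CPM. HAS2, a hyaluronan synthase, and CEMIP, a hyaluronan-degrading protein, were under 1 CPM in control and also rose (HAS2 to 0.368 and 1.57, CEMIP to 4.08 and 2.49), and the gene called lower was the linker EZR. TNFAIP6 and HAS2 passed the filter on low counts only through knockdown libraries, so the count of 5 higher depends partly on the filter. The transmembrane hyaluronidase gene CEMIP2 (TMEM2 in the count table), at 178 CPM in control, and the receptor gene HMMR, at 54.9 CPM, were not called.

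ALDH1A3 (ENSG00000184254, chromosome 15, 100877714 to 100916626) was the dominant ALDH1A gene of the control cells and fell with both hairpins. It was at 248, 345 and 516 CPM in control libraries A, B and C, 39.1, 57.9 and 95.8 with hairpin #1, and 26.5, 51 and 78.2 with hairpin #3. Replicate C was the highest and replicate A the lowest in each of the 3 groups, yet no knockdown library reached the lowest control library. ALDH1A3 changed by -2.52 on the log2 scale (SE 0.387, edgeR adjusted p-value 0.000172) with hairpin #1 and -2.83 (SE 0.392, 8.18e-05) with hairpin #3. Within letters A, B and C the log2 difference from control was -2.66, -2.57 and -2.43 with hairpin #1, and -3.22, -2.75 and -2.72 with hairpin #3. Between the hairpins ALDH1A3 differed by -0.31 (95% interval -1.11 to 0.501, edgeR adjusted p-value 0.683). With the replicate letter as a block this became -0.33 (SE 0.0917, edgeR adjusted p-value 0.0171, with 0.0171 to 0.995 over the alternatives), under the fold threshold, and hairpin #3 was lower within each of the 3 letters. Exons of ALDH1A3 share 1585 bases with an antisense gene, AC015712.2, which had up to 443 reads and which non-directional counts cannot separate.

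ALDH1A1 (ENSG00000165092, chromosome 9, 72900662 to 73080442) behaved differently with the hairpins. It was at 2.71, 3.04 and 4.25 CPM in control, 2.85, 4.07 and 1.16 with hairpin #1, and 15.7, 43.6 and 35 with hairpin #3. All hairpin #3 libraries were above every other library, while hairpin #1 replicates A and B lay within the control range and replicate C below it. With hairpin #3 it rose 9.43-fold by the group means (fitted log2 value 3.24, SE 0.397, edgeR adjusted p-value 2.78e-05). With hairpin #1 the log2 fold change was -0.33 (95% interval -1.29 to 0.626, edgeR adjusted p-value 0.601), and without hairpin #1 replicate C it was 0.0448 (edgeR adjusted p-value 0.946, with 0.284 to 0.946 over the alternatives). The direct difference between the hairpins was 3.57 (95% interval 2.69 to 4.45, edgeR adjusted p-value 0.000106). The pooled value of 2.35 (SE 1.01, edgeR adjusted p-value 0.0965) did not pass the threshold, with a range of 0.000854 to 0.23 over the alternatives. It passed in a model that kept the hairpins apart (1.45, edgeR adjusted p-value 0.00677), with no filter on low counts (0.029), and without hairpin #1 replicate C (2.60, 0.0362).

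**Figure D3:**
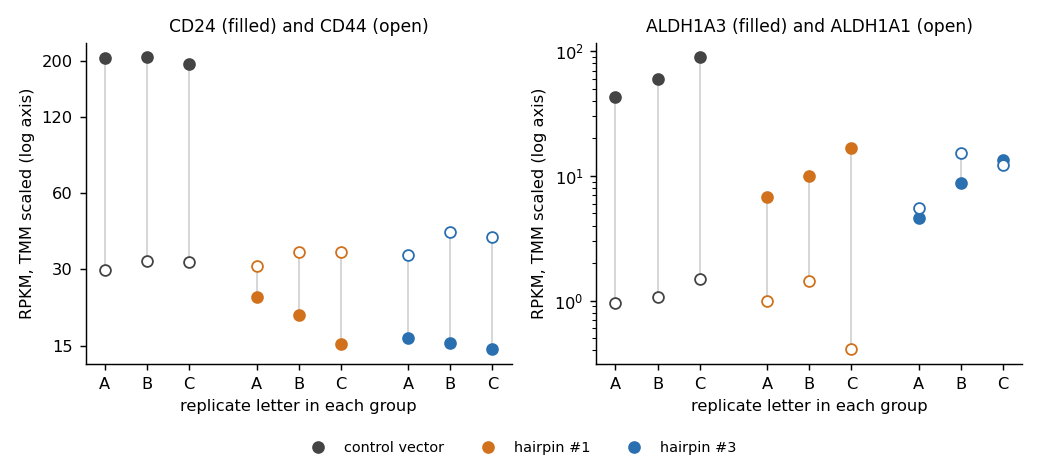
Level per length (y axis, RPKM on a log axis) of CD24 and CD44 (left) and of ALDH1A3 and ALDH1A1 (right) in each library, joined by a line within a library and grouped along the x axis by replicate letter and group. CD24 lies above CD44 in control and below it in all knockdown libraries, and ALDH1A3 lies far above ALDH1A1 in control but at 0.577 to 1.1 times its level with hairpin #3.

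Per length, ALDH1A1 made up 1.64% to 2.17% of the summed ALDH1A1 and ALDH1A3 level in control, 2.39% to 12.9% with hairpin #1 and 47.6% to 63.4% with hairpin #3. The summed level of the pair was 44.0, 60.8 and 90.9 RPKM in control, 7.77, 11.4 and 17 with hairpin #1, and 10.1, 24.1 and 25.8 with hairpin #3, and no knockdown library reached the control range. ALDH1A2, the third enzyme of the subfamily, had at most 6 reads in a library and was not tested.

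The wider ALDH family did not move as 1 block. Of 17 other members, 14 were tested, 2 of them called higher and 2 lower (median 0.185). ALDH1L1, a folate enzyme, fell from 7.68 CPM to 1.17 and 1.18, and ALDH3B2 from 2.17 CPM to 0 reads in all 6 knockdown libraries. ALDH2, the mitochondrial acetaldehyde dehydrogenase, rose from 12.8 to 33.7 and 35.5, and ALDH1L2, the mitochondrial counterpart of ALDH1L1, from 0.908 to 3.52 and 2.7. Of 20 listed genes for retinoid transport, turnover and response, 13 were tested, 1 called higher and 4 lower (median -0.163). CRABP2, a retinoic acid carrier, fell from 359 CPM to 13.2 (hairpin #1) and 49.5 (hairpin #3), a difference of 1.90 between them (SE 0.18, edgeR adjusted p-value 2.64e-05). Its relative CRABP1 rose from 0.245 CPM to 6.95 and 2.89, and RARRES1, a retinoid-responsive gene, fell from 5.95 to 0.0909 and 0.121. The remaining 2 that fell make or store retinoids, RDH10 (32.3 to 12.9 and 16.3) and LRAT (6.59 to 2.1 and 3.15). The retinoic acid receptor genes RARA, RARB and RARG were not called.

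Among 21 other genes used as stem-like markers or factors, 13 were tested, 2 called higher and 2 lower in the pooled comparison (median 0.307). KLF4, a transcription factor of epithelia and of reprogramming, fell from 26.1 CPM to 2.77 and 4.1, and POU5F1 (OCT4) from 1.5 to 0.585 and 0.627. NES, the intermediate filament nestin, went from 0.808 to 1.76 and 6.96 and differed between the hairpins by 1.99 (SE 0.255, edgeR adjusted p-value 0.000251), and DCLK1 rose from 14.2 to 30.9 and 42.2. DCLK1 was not called with hairpin #1 (log2 value 1.12, SE 0.443, edgeR adjusted p-value 0.0622). POU5F1 was not called with hairpin #3 (-1.26, SE 0.481, edgeR adjusted p-value 0.0584). NANOG and LIN28B had 0 reads in every library. The surface protein genes ALCAM, ITGA6 and ROR1 were not called, at 1290, 190 and 67.5 CPM in control.

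**Figure D4:**
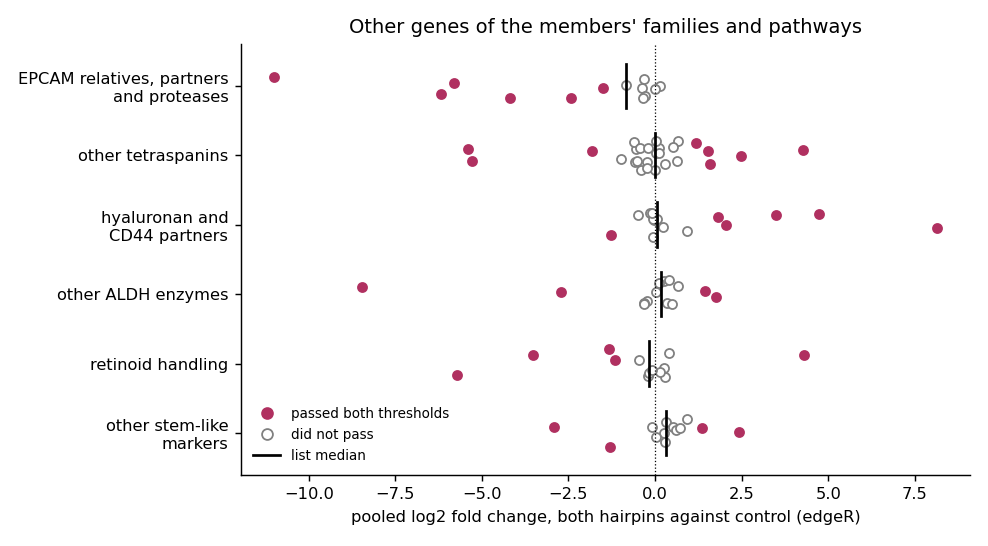
Pooled log2 fold change of both hairpins against control (x axis) for the tested genes of 6 lists around the members (rows, points jittered vertically), filled where both thresholds were passed, with a line at the list median. The fitted values of genes with 0 reads in a group, such as TNFAIP6 and ALDH3B2, depend on the prior count. Medians lie between -0.83 and 0.307, and in 5 of the lists called genes lie on both sides of 0, the exception being the relatives, partners and proteases of EPCAM, with 6 called and all lower.

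The genes with the most similar profile over the 9 libraries were found by the root mean square distance between log2 CPM values centred on their mean, among up to 9693 genes that averaged 10 CPM or more. This is a description over libraries that share their 3 groups. EPCAM was nearest to AIM1 (distance 0.241) and to ITGB6, an epithelial integrin subunit (0.3), both with a pooled log2 fold change of -5.89. CD24 was nearest to FAM83H-AS1 (0.139) and RASSF5 (0.192), and CD9 to ACP6 and FZD7 (0.127 each). CEACAM1 had OSR2 (0.433) and GLB1L2 (0.44) as its nearest genes. ALDH1A3 was nearest to PLAT (0.267), the gene for tissue plasminogen activator, and to JUP (0.369), the gene for plakoglobin. CD44 lay close to THOC6 (0.0342) and SDCCAG8 (0.0513), which also changed little. ALDH1A1 had no close neighbour, the nearest being IFI27 (0.833) and LTBP4 (0.997), with log2 fold changes of 2.76 and 3.68 with hairpin #3 and 0.20 and 1.56 with hairpin #1.

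The members lie on 8 chromosomes, and their neighbourhoods were checked for shifts shared by many genes. Over up to 25 genes on each side, the median pooled log2 fold change ranged from -0.186 around CEACAM1 to 0.173 around CD9 for the 7 tested members, and it was 0.000147 around EPCAM and -0.0146 around CD24. Around ALDH1A1 it was 0.0592 with hairpin #1 and 0.193 with hairpin #3, with a median of 0.126 for the difference between the hairpins. This window was wide, from 36136536 to 89005010 on chromosome 9. Around CD44 it was 0.122 with hairpin #1 and 0.08 with hairpin #3, which compares with 0.10 and 0.31 for CD44 itself. The largest shift lay at PROM1, whose neighbours were at -0.419 with hairpin #1 and -0.0121 with hairpin #3.

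Promoter sequence was examined for the members because several fell together. RefSeq windows on GRCh38.p14, each 300 bases long with 250 bases before and 50 after an annotated start, were present for 8 of the 9 members (EPCAM had none), 16 windows in all, some of them overlapping. The E-box CACCTG, read on both strands, is the kind of site that the ZEB and SNAI repressors of epithelial genes are known to bind. Its reverse complement is CAGGTG. It was found in 6 of the 16 windows, against 20.6% of 35116 windows over all genes. The GC box GGGCGG was found in 10 (all windows 45.0%) and the AP-1 motif TGANTCA in 1 (all windows 7.71%). PROM1 held the E-box in 3 of its 4 windows, CD24 in 1 of 3, CD9 in 1 of 4 and ALDH1A1 in its only window, while the windows of CD44, CEACAM1, CEACAM6 and ALDH1A3 held none. The matches of the 3 members that changed are shown with their flanks, 5′ to 3′ on the strand of the gene, with the E-box in capitals and its position counted from the start.
CD24, chr6:106974273-106974289, minus strand, position -249: cCAGGTGactacttccc
CD9, chr12:6200594-6200619, plus strand, position -238: tctcagggccCACCTGttcgcgggcc
ALDH1A1, chr9:72953013-72953038, minus strand, position 26: ctgagccagtCACCTGtgttccagga
Of these 3 members with a match, CD24 fell to under 10% of control, CD9 fell less and ALDH1A1 rose with 1 hairpin. ALDH1A3 and CEACAM1, which fell with both hairpins, had no match in their windows. The windows cover 300 bases each, and EPCAM, which fell farthest, had none. The part of these motifs in the changes was not tested.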

How the data were processed

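Poly(A)-selected RNA of OVCA433 cells was sequenced from non-directional libraries, described by the study as 3 biological replicates per condition. Per the labels, reads were aligned to hg38, and the submitters' processing notes list HISAT2 2.0.5 and featureCounts 1.5.0-p3. The authors deposited raw read counts per gene, with no normalization, next to gene lengths. All members had the same start and end in GENCODE 29 (GRCh38).

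Genes were filtered with filterByExpr (minimum count 10, minimum total 15), which kept 15975 genes, and scaled by TMM. A gene near 0 reads in 1 group could pass only through the groups where it was high. Counts of called genes in each direction depend partly on this, for the members and for the lists. edgeR 4.0.16 in R 4.3.3 was used (glmQLFit and glmQLFTest). Following the study, both hairpins formed 1 arm against control in a 2-arm model. Each hairpin, and their difference, was tested in a 3-group model of all 9 libraries. Each SE is the absolute log2 fold change over the square root of F. Levels of different genes are compared as RPKM with the deposited gene length (3097 bases for CD24, 10057 for CD44), so rankings and ratios between genes depend on these lengths. In CPM, the control means of CD24 and CD44 were 622 and 316. Where every library of a group was at or under 3 counts, no fold is given. Deviations of same-letter libraries correlated at 0.624, 0.321 and 0.526 (letters A, B and C) in control against hairpin #3. Between the hairpins the values were 0.655, 0.119 and 0.531. In control against hairpin #1 they were similar to these, at 0.611, 0.0651 and 0.436. Block values are given for the comparisons of hairpin #3 where they move the test, and were left out for hairpin #1 against control. For ALDH1A3 with hairpin #1, the block gave -2.56 (SE 0.0918), against -2.52 (SE 0.387) without it.

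Named genes were the members, MPZL3, PROM2 and CEACAM5, up to 3 called genes per list by absolute fold change (mean of at least 1 CPM), and the 2 nearest profiles per member. Other names were added after seeing values, and some listed genes are not reported here. The members and lists were chosen with earlier results of these data known. The procedure was tested on simulated counts. Alternatives included DESeq2 1.42.0.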

Additional observations from a re-analysis of the deposited data

Results flagged for a closer look

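ALDH1A1 was the 1 member whose direct difference between the hairpins passed both thresholds (CD9 and EPCAM passed the adjusted p-value alone). Its level with hairpin #3 exceeded that with hairpin #1 by 3.57 on the log2 scale (SE 0.407, edgeR adjusted p-value 0.000106), and all 3 hairpin #3 libraries lay above all 3 hairpin #1 libraries. Across the alternatives this difference ranged from 3.19 to 3.99. Within letters A, B and C it was 2.42, 3.39 and 4.8. MPZL3 itself differed by -0.25 between the hairpins (edgeR adjusted p-value 0.614), and the genes of the wide window around ALDH1A1 by a median of 0.126 (0.105 with 10 genes on each side). The part of either in the ALDH1A1 result was not tested.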

How the results depend on the processing

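Of 450 refits of a member in a comparison, 443 kept the direction and the call, 4 newly passed both thresholds (ALDH1A1, pooled) and 3 changed sign, none of them a called value. Without hairpin #1 replicate C, ALDH1A1 with hairpin #1 was at 0.0448 and ALDH1A3 between the hairpins at 0.103, and without hairpin #3 replicate A the latter was at 0.00795. With single libraries left out in turn, the former ranged from -0.752 to 0.0448 and the latter from -0.724 to 0.103. Without a fold threshold, 5269 genes passed in the pooled comparison, 6032 with hairpin #1, 5536 with hairpin #3 and 1857 between the hairpins, where 3 members (EPCAM, CD9, ALDH1A1) then passed. Leaving out 1 library at a time called 5 to 6 members pooled, 4 with hairpin #1, 6 with hairpin #3 and 1 between the hairpins, and 2096 to 2490, 2462 to 2780, 2333 to 2590 and 515 to 711 genes in all. CEACAM1 was not kept by the filter at a mean of 1 CPM. A replicate block by letter gave the pooled comparison 2306 genes and 5 members. It changed no call of a member, but moved the adjusted p-values of ALDH1A3, CD24 and CD44 between the hairpins under 0.05 (0.0171, 0.0192 and 0.0342). Over all 9 same-letter pairs the correlations were 0.0651 to 0.655, and not every library correlated best with its own letter. A block in the 3-group model, added after seeing the data, gave 6 members (ALDH1A1 at 1.41). Depth limits CEACAM1, PROM1 and CEACAM6.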

Other observations

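The linkers that tie CD44 to actin moved apart. They are named here with their values already known. EZR (ezrin, the form typical of epithelia) fell from 941 CPM to 392 (hairpin #1) and 389 (hairpin #3), which is -1.27 pooled on the log2 scale (SE 0.156, edgeR adjusted p-value 6.1e-05). MSN (moesin, the form typical of mesenchymal cells) went from 286 to 602 and 484 CPM (0.93, SE 0.116, 7.21e-05), under the fold threshold when pooled but past it with hairpin #1 at 1.07. RDX (radixin) was at 226, 226 and 204 CPM (-0.07, SE 0.107, edgeR adjusted p-value 0.664).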
